A study of Mus musculus with 8 samples.

Results

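The genes described here carry out DNA replication and supply its nucleotides, in cultures of mouse bone marrow cells that grew as macrophage precursors or formed osteoclasts. They were chosen by name, as a list of 39 symbols, with earlier results of these data known. Each gene was read from the transcript cluster annotated to it. The arrays measured 38 of the 39 genes, out of 10871 measured genes in all. The remaining one, Mcm7, was not analysed here. The cells came from C57BL6/J bone marrow, and the study had 8 arrays, 1 for each of 4 cultures on day 3 and on day 6 of treatment. One culture, named M-CSF, was treated with 50 ng/ml M-CSF alone. The culture named M-CSF+RANKL was treated with 50 ng/ml M-CSF together with 100 ng/ml RANKL. The cultures named PSS1-WT and PSS1-LMS were given both factors at these doses and, 1 day into treatment, a retrovirus carrying wild-type or mutant PSS1. The LMS mutation, whether the other cultures were given an empty virus, how many animals gave marrow, and their age are not stated in the sources used here. All values below are log2 signals or differences between log2 signals. No group had a replicate, so p-values measure only the spread between cultures and days, not between animals.

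M-CSF is the growth factor that keeps macrophage precursors alive and dividing, and RANKL is the cytokine that drives such precursors to leave the cell cycle, fuse and become bone-resorbing osteoclasts. Before S phase, the origin recognition complex, Cdc6 and Cdt1 load the ring-shaped MCM helicase onto DNA. Cdc45 and the GINS complex then switch that helicase on, primase and the DNA polymerases copy both strands behind it, and ribonucleotide reductase and its partners supply the deoxynucleotides. Most of these genes are transcribed in a wave at the entry to S phase under E2F transcription factors, and their transcripts are commonly read as a mark of cycling cells.

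Promoter sequence is shown first because many of these genes are known E2F targets. RefSeq promoter windows of the GRCm38.p6 assembly, covering the 250 bases before a transcription start, were found for 32 of the 38 genes, in 36 windows. Any of the 4 E2F motifs TTTCCCGC, TTTCGCGC, TTTGCCGC and TTTGGCGC, searched on both strands, occurred in 7 of the 36 windows (19.4%), against 1.86% of the 32851 windows of the whole table. A CCAAT box (CCAAT, both strands) occurred in 55.6% of the members' windows and 33.8% of all windows. The motifs TTTGAA and TTCGAA, counted together as the cell cycle homology region of mitotic promoters, occurred in 16.7% of the members' windows and 17.1% of all windows. For a list of mitosis genes the 3 shares were 5.56%, 88.9% and 44.4%. A match is a run of letters and no measure of binding. The genes with an E2F match were Cdc6, Gins3, Mcm5, Mcm6, Orc1, Pola1 and Rfc3. The 170 bases before the start are printed 5′ to 3′ on the gene's own strand for 4 of them, with E2F matches in capitals, because these 4 show the match in different places. Cdc6 lies on the plus strand at chr11:98907981-98908150, with its match 138 bases before the start. Gins3 lies on the plus strand at chr8:95633389-95633558, with its match at 41 bases. In Mcm5, on the plus strand at chr8:75109339-75109508, matches at 153 and 149 bases overlap and form 1 run of capitals. In Mcm6, on the minus strand at chr1:128359706-128359875, matches at 110 and 106 bases overlap and a separate one lies at 47 bases.
Cdc6: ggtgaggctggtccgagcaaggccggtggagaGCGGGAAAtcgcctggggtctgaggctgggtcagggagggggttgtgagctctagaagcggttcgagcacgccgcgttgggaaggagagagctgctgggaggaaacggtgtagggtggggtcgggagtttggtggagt
Gins3: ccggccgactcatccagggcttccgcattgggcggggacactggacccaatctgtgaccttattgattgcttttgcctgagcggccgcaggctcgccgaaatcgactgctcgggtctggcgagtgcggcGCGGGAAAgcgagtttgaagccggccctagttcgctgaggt
Mcm5: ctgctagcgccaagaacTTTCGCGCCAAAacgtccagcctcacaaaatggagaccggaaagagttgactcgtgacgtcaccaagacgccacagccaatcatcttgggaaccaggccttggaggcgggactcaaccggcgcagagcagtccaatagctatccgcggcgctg
Mcm6: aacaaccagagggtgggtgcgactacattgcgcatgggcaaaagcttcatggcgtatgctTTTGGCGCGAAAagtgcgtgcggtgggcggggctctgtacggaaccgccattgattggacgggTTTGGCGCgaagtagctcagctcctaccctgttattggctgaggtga

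The labels were checked first. Ptdss1, the gene for PSS1, lay between 17.50 and 18.91 on the 4 PSS1 arrays and between 9.56 and 10.36 on the other 4. The summed signal of 10 osteoclast markers was 8.88 and 10.42 in M-CSF on days 3 and 6 and lay between 21.35 and 21.52 on the 6 arrays with RANKL. That of 8 macrophage markers was 18.14 and 19.89 in M-CSF and 16.40 to 16.76 with RANKL. With RANKL it was nearly all Csf1r, at 16.37 to 16.75, which measured 16.98 and 17.56 in M-CSF. The other 7 macrophage markers were lower with RANKL on day 3, with differences from -7.94 to -4.08. Monocyte and neutrophil markers differed by day. Their summed signal on day 3 was 14.22 in M-CSF and 14.20 to 14.71 with RANKL. Most of it was Ngp, at 13.68 in M-CSF and 13.79 to 14.35 with RANKL. The day 3 difference was positive for 8 of the 10 markers and negative for Ccr2 and Csf3r. Ccr2 measured 10.04 in M-CSF and 5.23 to 6.28 with RANKL on day 3, and Csf3r was within background on all arrays of that day. On day 6 the sum was 10.31 in M-CSF and 7.71 to 7.98 with RANKL. In M-CSF on day 6 only 1 of these 10 markers was above background. It was Csf3r, which went from 6.22 on day 3 to 9.96, while all the others went down. The sum over the 5 erythroid genes on the table was 11.58 and 12.16 in M-CSF and 15.19 to 17.08 with RANKL. Klf1, Epor and Alas2 were within background on all arrays, and 2 genes were measured. Nearly all of the sum was Tfrc, at 11.51 and 12.12 in M-CSF and 15.18 to 17.07 with RANKL. The other measured gene, Slc4a1, lay at 6.54 and 6.36 in M-CSF and 5.68 to 6.34 with RANKL. The mast cell and megakaryocyte sum was 15.03 and 14.81 in M-CSF and 7.56 to 8.42 with RANKL, with 5 of 7 genes within background throughout. Pf4 alone measured 15.03 and 14.81 in M-CSF and 6.00 to 7.61 with RANKL. The sum of the B cell list, with 6 of 7 genes within background, was 11.05 and 12.37 in M-CSF and 9.16 to 10.37 with RANKL. That of the T and NK cell list, also with 6 of 7 within background, was 7.22 and 8.66 against 7.06 to 7.65. All 7 stromal genes were within background. Whether cells of these types were present, and their part in the results below, was not tested. Signals no brighter than the brightest of 23 background probe sets on an array, which reached 5.54 to 7.13, are called within background. By this measure 22 of the 38 replication genes were above background on all 8 arrays, beside 53.6% of all measured genes. Within it on all 8 were 2 of the 38, beside 18.5% of all measured genes. The M-CSF array of day 6 had the brightest background probe set. Of the 38, 16 were within background there (7 by its second brightest background probe set), against 5 to 10 on the 3 RANKL arrays of that day. Of all 10871 measured genes, 4566 were within background on that M-CSF array and 2552 to 3518 on those 3 RANKL arrays. A difference with such a signal on either side is given as measured, and its size is then not well known. In bulk RNA, fewer cycling cells and less replication RNA per cell cannot be told apart.

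On day 3 the replication genes were lower in every culture with RANKL than in M-CSF for most members. The 3 RANKL arrays of a day were set against the M-CSF array of that day with limma, with Benjamini-Hochberg adjustment over all 10871 genes. Of the 38 genes, 28 fell and 0 rose on day 3, where 20.2% of all measured genes fell and 22.3% rose. Their median difference was -1.41, beside 0.02 for all measured genes. The M-CSF array of day 3 lay above all 3 RANKL arrays of that day for 34 of the 38, a pattern seen in 39.4% of all genes, and was the highest of the 8 arrays for 32 of the 38, beside 20.8% of all genes. Each of these values rests on the single M-CSF array of day 3. Of the 7 genes with an E2F match in the promoter window 5 fell, and of the 25 with a window and no match 18 fell.

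By day 6 the same comparison gave a different picture. The M-CSF culture had itself come down, and 7 of the 38 genes were higher with RANKL, where 22% of all genes were higher, so the count was no more than the background. Pcna alone was lower with RANKL, where 21.6% of all genes were lower. With every signal raised to at least the brightest background probe set, these counts became 2 higher and 2 lower. The median difference of the 38 genes was 0.30 on day 6, beside 0.01 for all genes. The difference between the days' RANKL differences was tested as an interaction, counted as positive where the RANKL difference was higher on day 6 than on day 3. It was positive and past the threshold for 25 of the 38 genes and negative for 0, while 8.49% of all genes passed in the positive and 11.3% in the negative direction. The 25 were all among the 28 that fell on day 3. The members' median interaction was 1.65, beside -0.03 for all genes.

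**Figure D1:**
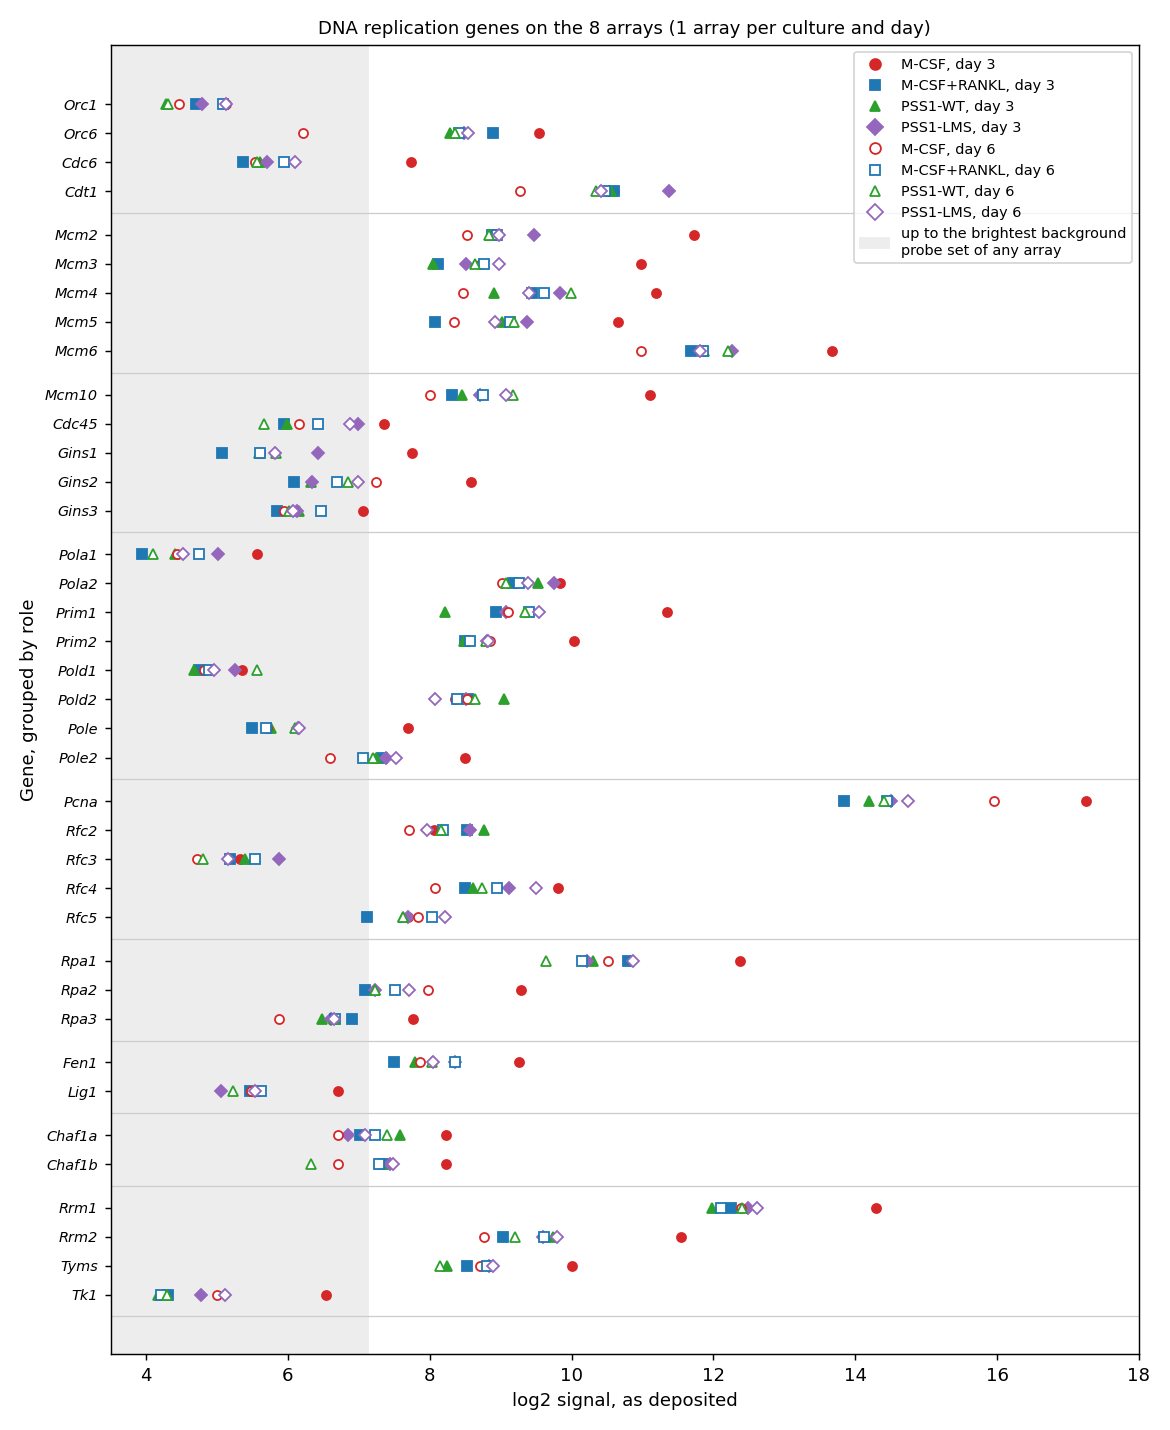
Log2 signal (x axis) of each of the 38 genes (y axis, grouped by role) on the 8 arrays, with filled symbols for day 3, open symbols for day 6 and a colour for each culture; the grey band ends at 7.13, the brightest background probe set of any array. The filled M-CSF circle is the rightmost symbol for 32 of the 38 genes, while the open M-CSF circle lies within the range of the 6 arrays with RANKL for 20 of them.

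**Figure D2:**
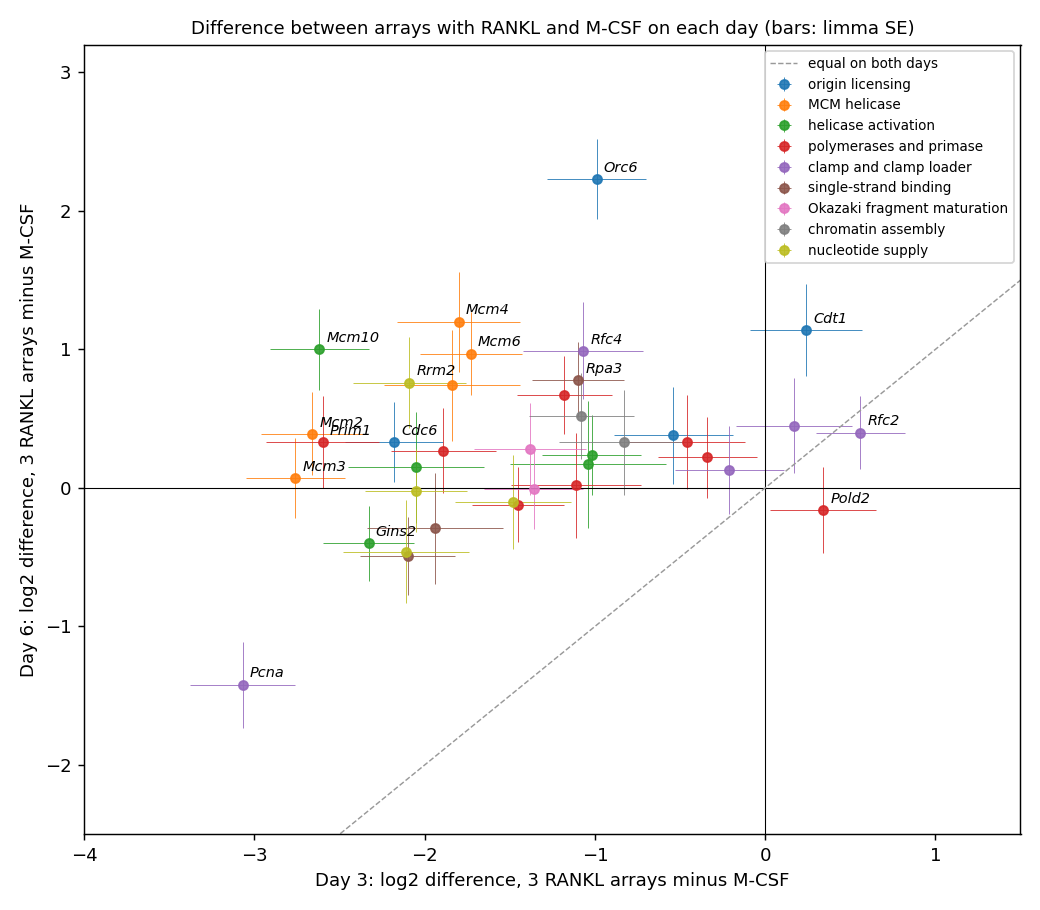
Log2 difference between the 3 RANKL arrays and the M-CSF array on day 3 (x axis) and on day 6 (y axis), 1 point per gene coloured by role, with bars for the limma standard error and a dashed line where both days are equal. The MCM genes and most others lie far to the left of 0 and near or above 0 on the vertical axis; Pcna is the one gene past the threshold below 0 on both.

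The MCM genes encode subunits of the replicative helicase, and all 5 measured ones fell on day 3 and passed in the interaction. With the cultures taken as M-CSF, then M-CSF+RANKL, then PSS1-WT, then PSS1-LMS, an order kept in all such series of values, Mcm2 measured 11.72, 8.88, 8.85 and 9.47 on day 3 and 8.52, 8.95, 8.83 and 8.98 on day 6. Mcm3 measured 10.98, 8.11, 8.04 and 8.51 on day 3 and 8.72, 8.76, 8.64 and 8.97 on day 6. In both genes the M-CSF array of day 3 stood above the other 7. The day 3 difference of Mcm3 was -2.76 ± 0.29 (SE, adjusted p = 5.52e-06), a fold of 6.78, and that of Mcm2 was -2.66 ± 0.30 (SE, adjusted p = 1.15e-05), a fold of 6.30. On day 6 the differences were 0.07 (adjusted p = 0.881) and 0.39 (adjusted p = 0.323).

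Mcm4, Mcm5 and Mcm6 shared the high M-CSF array of day 3, and on day 6 their M-CSF array was the lowest of the day. Mcm4 measured 11.19, 9.44, 8.91 and 9.83 on day 3 and 8.47, 9.61, 9.99 and 9.40 on day 6, in the same order of cultures. Mcm5 measured 10.66, 8.07, 9.02 and 9.37 and then 8.34, 9.13, 9.19 and 8.92. Mcm6 measured 13.67, 11.69, 11.86 and 12.26 and then 10.98, 11.85, 12.21 and 11.81. Mcm4 and Mcm6 passed the threshold in opposite directions on the days. Mcm4 fell by 1.80 on day 3 and was 1.20 ± 0.36 (SE, adjusted p = 0.0151) on day 6, and Mcm6 fell by 1.73 on day 3 and was 0.97 ± 0.30 (SE, adjusted p = 0.0188) on day 6. The day 6 difference of Mcm5 was 0.74 (adjusted p = 0.162). The interaction was 3.05 (adjusted p = 0.000553) for Mcm2, 3.00 (adjusted p = 0.00166) for Mcm4, 2.83 (adjusted p = 0.000675) for Mcm3, 2.71 (adjusted p = 0.0012) for Mcm6 and 2.58 (adjusted p = 0.00756) for Mcm5.

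Origin licensing begins with the origin recognition complex, of which Orc1 and Orc6 are subunits, and with the loading factors Cdc6 and Cdt1. Orc6 measured 9.54, 8.89, 8.29 and 8.48 on day 3 and 6.21, 8.41, 8.36 and 8.54 on day 6, ordered as M-CSF, then M-CSF+RANKL, then PSS1-WT, then PSS1-LMS. The 6 RANKL arrays of Orc6 lay within 8.29 to 8.89, between the M-CSF array of day 3 above them and that of day 6 below them. The RANKL difference of Orc6 was -0.99 ± 0.29 (SE, adjusted p = 0.0146) on day 3 and 2.23 ± 0.29 (SE, adjusted p = 3.51e-05) on day 6, where the M-CSF signal was within background and the fold was at least 2.47. Cdc6 measured 7.74, 5.37, 5.61 and 5.70 on day 3 and 5.54, 5.94, 5.57 and 6.10 on day 6. Its M-CSF array of day 3 stood apart from the other 7, of which the 3 RANKL arrays of day 3 were within background. Cdc6 was lower with RANKL on day 3 at -2.18 ± 0.29 (SE, adjusted p = 4.81e-05), a fold of at least 3.45. The interaction was 3.22 (adjusted p = 0.000314) for Orc6 and 2.51 (adjusted p = 0.00148) for Cdc6.

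Cdt1 in M-CSF on day 3 lay within the range of the RANKL arrays. It lay between 10.55 and 11.37 with RANKL on day 3, against 10.60 in M-CSF, and between 10.34 and 10.47 on day 6, against 9.27 in M-CSF. Its difference was 0.24 (adjusted p = 0.598) on day 3 and 1.14 ± 0.33 (SE, adjusted p = 0.0125) on day 6, so that it passed the threshold upward on day 6 alone; its interaction was 0.90 (adjusted p = 0.195). Orc1 was within background on all 8 arrays, between 4.28 and 5.13, and passed in neither day's comparison.

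Helicase activation needs Mcm10, Cdc45 and the GINS complex, of which Gins1, Gins2 and Gins3 are on the member list. Mcm10 measured 11.11, 8.31, 8.45 and 8.71 on day 3 and 8.0, 8.75, 9.18 and 9.08 on day 6, ordered as M-CSF, then M-CSF+RANKL, then PSS1-WT, then PSS1-LMS. The M-CSF culture thus held the highest value of the 8 arrays on day 3 and the lowest on day 6. The RANKL difference of Mcm10 was -2.62 ± 0.29 (SE, adjusted p = 8.82e-06) on day 3, a fold of 6.15, and 1.0 ± 0.29 (SE, adjusted p = 0.0126) on day 6. Its interaction of 3.62 (adjusted p = 0.000139) had the greatest size among the 38 genes.

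Gins1, Gins2 and Gins3 fell on day 3 and passed in the interaction, and none of these 3 rose past the threshold on day 6. Gins1 measured 7.75, 5.07, 5.59 and 6.42 on day 3 and 5.61, 5.61, 5.83 and 5.82 on day 6. Gins2 measured 8.58, 6.08, 6.32 and 6.34 and then 7.24, 6.69, 6.84 and 6.99. Gins3 measured 7.06, 5.84, 6.15 and 6.13 and then 5.94, 6.47, 6.02 and 6.07. In all 3 the M-CSF array of day 3 was the highest. The day 3 differences were -2.05 (adjusted p = 0.00109) for Gins1, -2.33 (adjusted p = 1.36e-05) for Gins2 and -1.02 (adjusted p = 0.0114) for Gins3, and the interactions were 2.20 (adjusted p = 0.017), 1.93 (adjusted p = 0.00419) and 1.26 (adjusted p = 0.0445). Gins1 was within background on 5 arrays and Gins3 on 3, so no fold is given for them. The interaction of Gins3 missed the threshold when M-CSF+RANKL on day 3 (adjusted p = 0.0802), PSS1-WT on day 3 (0.0646), PSS1-LMS on day 3 (0.0644), M-CSF+RANKL on day 6 (0.0596) or PSS1-LMS on day 6 (0.0521) was left out. Cdc45 lay between 5.66 and 7.35 over the 8 arrays, was within background on 2 of them, and its day 3 difference of -1.04 ± 0.46 (SE, adjusted p = 0.0875) missed the threshold.

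Among the polymerase and primase genes, 5 of 8 fell on day 3, and 4 of those passed in the interaction. Prim1, the catalytic subunit of primase, measured 11.35, 8.94, 8.22 and 9.08 on day 3 and 9.10, 9.40, 9.34 and 9.54 on day 6, ordered as M-CSF, then M-CSF+RANKL, then PSS1-WT, then PSS1-LMS. Prim2, its regulatory subunit, measured 10.04, 8.49, 8.48 and 8.81 and then 8.85, 8.57, 8.79 and 8.82. Both subunits were highest in M-CSF on day 3, and on day 6 the M-CSF array of Prim1 was the lowest of its 4 cultures and that of Prim2 the highest. The day 3 difference was -2.60 ± 0.33 (SE, adjusted p = 3.18e-05) for Prim1, a fold of 6.08, and -1.45 ± 0.27 (SE, adjusted p = 0.000803) for Prim2. Their interactions were 2.93 (adjusted p = 0.00129) and 1.33 (adjusted p = 0.0295). That of Prim2 was 1.28 (adjusted p = 0.0549) when M-CSF+RANKL on day 3 was left out and 1.27 (adjusted p = 0.0629) when PSS1-WT on day 3 was.

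Pole, the catalytic subunit of the leading-strand polymerase epsilon, measured 7.69, 5.49, 5.76 and 6.14 on day 3 and 5.71, 5.69, 6.10 and 6.15 on day 6. Pole2, its second subunit, measured 8.49, 7.32, 7.24 and 7.38 and then 6.59, 7.06, 7.20 and 7.53. Pole was within background on 4 arrays, 2 of them RANKL arrays of day 3, and Pole2 in M-CSF on day 6. Both genes fell on day 3, with differences of -1.89 (adjusted p = 0.000298) and -1.18 (adjusted p = 0.00386). The interactions were 2.17 (adjusted p = 0.00517) for Pole and 1.85 (adjusted p = 0.00609) for Pole2. Pold2, a subunit of polymerase delta, measured 8.35, 8.54, 9.05 and 8.51 on day 3 and 8.52, 8.38, 8.64 and 8.07 on day 6. It went against the others of its group in having its M-CSF array of day 3 below all 3 RANKL arrays, with a difference of 0.34 (adjusted p = 0.416) that missed the threshold. Pold1, the catalytic subunit of the same polymerase, lay between 4.68 and 5.57 and was within background on 7 of the 8 arrays. Pola2 lay between 9.02 and 9.83 over the 8 arrays, and neither of these 2 genes passed on either day. Pola1, the catalytic subunit of polymerase alpha, was within background on all 8 arrays, and although its day 3 difference of -1.11 (adjusted p = 0.0327) passed, no fold is given; leaving out M-CSF+RANKL on day 3, it was -0.85 (adjusted p = 0.088), and leaving out PSS1-WT on day 3, it was -1.08 (adjusted p = 0.0639).

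The sliding clamp Pcna, which holds polymerases on DNA, had the greatest day 3 difference of the 38 genes. It measured 17.25, 13.84, 14.20 and 14.51 on day 3 and 15.95, 14.45, 14.40 and 14.75 on day 6, ordered as M-CSF, then M-CSF+RANKL, then PSS1-WT, then PSS1-LMS. M-CSF was the highest of the 4 cultures on both days, with no overlap with the 6 RANKL arrays. The difference was -3.07 ± 0.31 (SE, adjusted p = 4.03e-06) on day 3, a fold of 8.39, and -1.42 ± 0.31 (SE, adjusted p = 0.00212) on day 6, a fold of 2.67. The interaction was 1.65 (adjusted p = 0.019).

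The clamp loader opens the clamp and sets it on DNA, and of its 4 subunits on the member list Rfc4 passed. Rfc4 measured 9.81, 8.50, 8.61 and 9.12 on day 3 and 8.07, 8.95, 8.73 and 9.50 on day 6. It fell on day 3 at -1.07 (adjusted p = 0.0235), rose on day 6 at 0.99 (adjusted p = 0.0334), and had an interaction of 2.06 (adjusted p = 0.0111); leaving out M-CSF+RANKL on day 3, its difference on that day was -0.95 (adjusted p = 0.065), leaving out PSS1-WT on day 3 it was -1.01 (adjusted p = 0.0572), and leaving out PSS1-LMS on day 6, the day 6 difference was 0.77 (adjusted p = 0.0818). Rfc2 measured 8.06, 8.53, 8.77 and 8.57 and then 7.71, 8.19, 8.16 and 7.96. Its M-CSF array was the lowest of the 4 cultures on each day, and its differences of 0.56 (adjusted p = 0.107) and 0.40 (adjusted p = 0.255) missed the threshold. Rfc3, within background on 7 of the 8 arrays, measured 5.32, 5.18, 5.40 and 5.88 and then 4.72, 5.54, 4.80 and 5.16. Its differences of 0.17 (adjusted p = 0.736) and 0.45 (adjusted p = 0.33) missed the threshold. Rfc5 lay between 7.12 and 8.22 over the 8 arrays, and its differences of -0.21 (adjusted p = 0.634) and 0.13 (adjusted p = 0.791) also missed it.

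All 3 subunits of replication protein A, which coats single-stranded DNA, fell on day 3. Rpa1 measured 12.38, 10.79, 10.30 and 10.21 on day 3 and 10.51, 10.14, 9.64 and 10.86 on day 6, ordered as M-CSF, then M-CSF+RANKL, then PSS1-WT, then PSS1-LMS. Rpa2 measured 9.28, 7.09, 7.23 and 7.22 and then 7.97, 7.51, 7.23 and 7.71. Rpa3 measured 7.76, 6.90, 6.48 and 6.60 and then 5.88, 6.67, 6.65 and 6.65. The M-CSF array of day 3 was the highest for each subunit, whereas on day 6 M-CSF was above all RANKL arrays for Rpa2, among them for Rpa1 and below them for Rpa3. The day 3 differences were -1.94 (adjusted p = 0.0016), -2.10 (adjusted p = 4.34e-05) and -1.10 (adjusted p = 0.00534), and on day 6 only Rpa3 passed, upward, at 0.78 (adjusted p = 0.0334); its M-CSF signal there was within background, so no fold is given. The interaction passed for Rpa2 at 1.61 (adjusted p = 0.0128) and Rpa3 at 1.87 (adjusted p = 0.00509), and not for Rpa1 at 1.65 (adjusted p = 0.0587). The day 6 difference of Rpa3 was 0.77 (adjusted p = 0.0509) when M-CSF+RANKL on day 6 was left out and 0.78 (adjusted p = 0.055) when PSS1-LMS on day 6 was.

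Fen1 and Lig1, which trim and join Okazaki fragments, both fell on day 3. Fen1 measured 9.26, 7.49, 7.79 and 8.36 on day 3 and 7.86, 8.35, 8.03 and 8.05 on day 6. Lig1 measured 6.71, 5.47, 5.55 and 5.05 and then 5.48, 5.62, 5.23 and 5.54. In each the M-CSF array of day 3 was the highest of the 8. The day 3 differences were -1.38 (adjusted p = 0.00453) and -1.36 (adjusted p = 0.00227), that of Lig1 with all 3 RANKL arrays within background and a fold of at least 1.7, and the interactions were 1.66 (adjusted p = 0.0259) and 1.34 (adjusted p = 0.0383). The interaction of Fen1 missed the threshold when PSS1-WT on day 3 was left out (adjusted p = 0.051). That of Lig1 missed it when M-CSF+RANKL on day 3 (adjusted p = 0.0527), PSS1-LMS on day 3 (0.0756), M-CSF+RANKL on day 6 (0.0535) or PSS1-LMS on day 6 (0.0614) was left out. Chaf1a is the large subunit of the chromatin assembly factor that places histones on new DNA. It measured 8.23, 7.01, 7.58 and 6.85 on day 3 and 6.71, 7.22, 7.40 and 7.09 on day 6. Chaf1a was within background in M-CSF on day 6. It fell on day 3 at -1.08 (adjusted p = 0.0139) and had an interaction of 1.61 (adjusted p = 0.0235). Its partner Chaf1b lay between 6.32 and 8.23, and its day 3 difference of -0.83 (adjusted p = 0.0968) missed the threshold.

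Nucleotide supply was represented by both subunits of ribonucleotide reductase, by thymidylate synthase (Tyms) and by thymidine kinase (Tk1), and all 4 fell on day 3. Rrm1, the large reductase subunit, measured 14.29, 12.25, 11.98 and 12.48 on day 3 and 12.39, 12.11, 12.40 and 12.61 on day 6, ordered as M-CSF, then M-CSF+RANKL, then PSS1-WT, then PSS1-LMS. Rrm2, the S-phase subunit, measured 11.54, 9.03, 9.74 and 9.59 and then 8.77, 9.61, 9.20 and 9.79. Both subunits stood highest in M-CSF on day 3, at folds over the RANKL arrays of 4.15 for Rrm1 and 4.24 for Rrm2. Their day 3 differences were -2.05 (adjusted p = 9.74e-05) and -2.09 (adjusted p = 0.000217), and their interactions 2.04 (adjusted p = 0.00545) and 2.85 (adjusted p = 0.00155). Tk1 measured 6.53, 4.31, 4.17 and 4.77 on day 3 and 5.00, 4.21, 4.30 and 5.11 on day 6. Only its M-CSF array of day 3 was above background, so the day 3 difference of -2.11 (adjusted p = 0.00044) corresponds to a fold of at least 1.5. The interaction of Tk1 was 1.65 (adjusted p = 0.0414), and it missed the threshold when M-CSF+RANKL on day 3 (adjusted p = 0.0761), PSS1-WT on day 3 (0.0792) or PSS1-LMS on day 6 (0.051) was left out. Tyms lay between 8.15 and 10.01 over the 8 arrays. It fell on day 3 at -1.48 (adjusted p = 0.00342), and its interaction was 1.38 (adjusted p = 0.062).

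The M-CSF culture itself changed between the days. From day 3 to day 6 in M-CSF, 36 of the 38 genes went down, beside 49.9% of all measured genes. The drop was at least 2-fold for 31 of them, and for 12.9% of all measured genes. With 1 array a day this is a description. The median change in M-CSF was -1.52, from -3.33 for Orc6 to 0.17 for Pold2, beside a median of 0.00 for all genes. On day 6 the M-CSF value lay within the range of the 6 RANKL arrays for 20 of the 38 genes, beside 31.5% of all genes. It lay below all 3 RANKL arrays of day 6 for 21 genes and above them for 4, beside 39.8% and 38.9% of all genes. Over the same days in M-CSF the summed signal of monocyte and neutrophil markers went from 14.22 to 10.31, its day 6 value being mostly Csf3r. The summed signal of macrophage markers went from 18.14 to 19.89. The part of both in the change of the replication genes was not tested. In the 6 arrays with RANKL no member passed between the days. The limma day effect, fitted on those 6 arrays, passed for 0 of the 38 genes. This is near the share of all genes, of which 3.38% passed. An unadjusted p under 0.05 was found for 6 of the 38, and for 1844 of all 10871 genes. The members' smallest adjusted p was 0.0999, for Prim1 at 0.68 ± 0.21. The median day effect was 0.11, beside -0.03 for all genes. The range over the 6 arrays with RANKL had a median of 0.86 across the members and ran from 0.34 to 1.34. For all measured genes the median range was 0.74, so the members were no steadier than the typical gene.

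**Figure D3:**
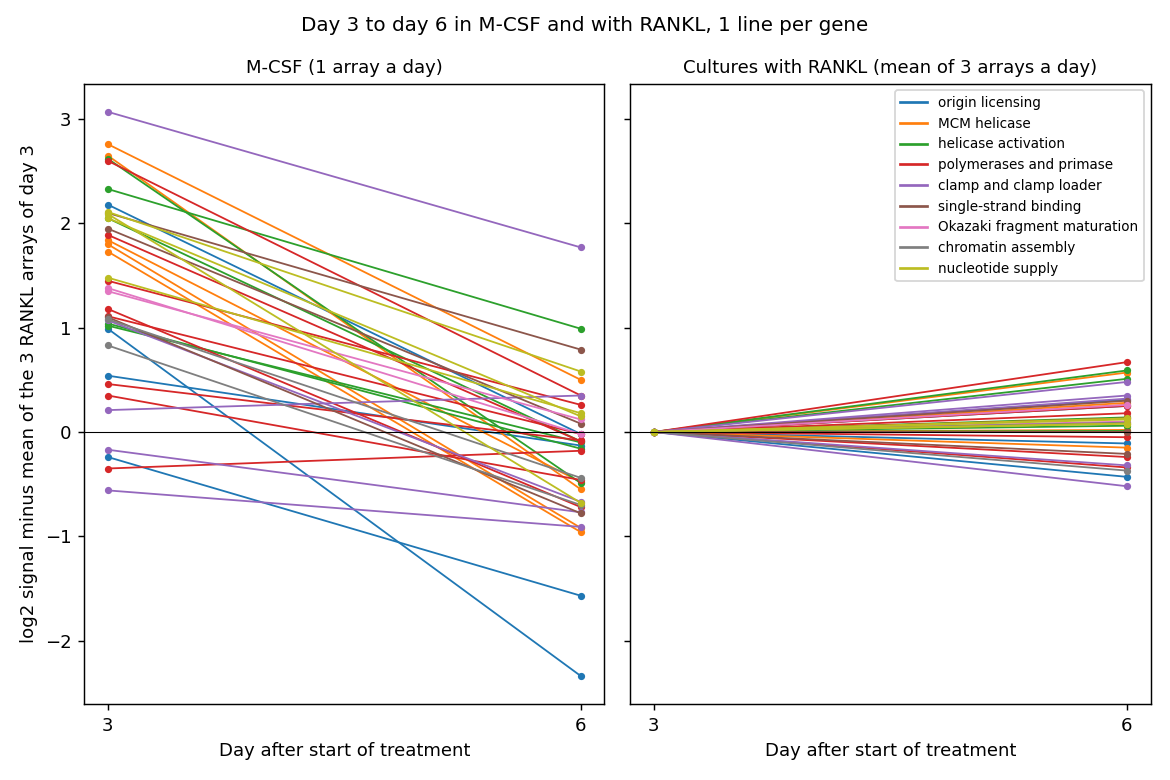
Log2 signal of each of the 38 genes relative to its mean over the 3 RANKL arrays of day 3 (y axis) on days 3 and 6 (x axis), in the single M-CSF array of each day (left) and as the mean of the 3 RANKL arrays (right), with 1 line per gene coloured by role. In M-CSF 36 of the 38 lines go down, and the median change of the 38 is -1.52. With RANKL the lines end between -0.52 and 0.68.

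Averaged over the days, few of these genes passed with RANKL. The fit of culture and day on all 8 arrays set M-CSF+RANKL against M-CSF. Of all 10871 genes, 1343 (12.4%) were lower and 1532 higher, and of the 38 genes 2 were lower and 0 higher. The 2 were Pcna at -2.46 ± 0.46 (SE, adjusted p = 0.00631) and Tk1 at -1.51 ± 0.46 (SE, adjusted p = 0.0469), and the members' median was -0.60. This fit has no RANKL by day term, so a RANKL difference that changes between the days enters its error. For Mcm10 the SE was 0.85 in this fit and 0.29 on day 3, and for Pold2 0.30 and 0.31. The averaged count also turned on which arrays entered. It was 28 lower when M-CSF on day 6 was left out, 1 lower and 4 higher when M-CSF on day 3 was left out, 0 lower when M-CSF+RANKL on day 3 was left out, and 1 lower when any 1 of the other arrays was. The day 3 count stayed between 26 and 29 when each other array was left out in turn. The M-CSF array of day 3 itself could not be left out of the day 3 comparison, nor either M-CSF array out of the interaction.

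Wild-type or mutant PSS1 changed none of these genes past the threshold. For each gene the PSS1 comparisons averaged days 3 and 6 in the 6 arrays with RANKL, and the first and second share the M-CSF+RANKL arrays. For PSS1-WT against M-CSF+RANKL, limma called 0 of 38 genes, where 0.0092% of all genes passed; 1 member had an unadjusted p under 0.05, 17 were higher and 21 lower, and the median was -0.04. For PSS1-LMS against M-CSF+RANKL, 0 of 38 were called, where 0.175% of all genes passed; 5 had an unadjusted p under 0.05, and 31 were higher and 7 lower, with a median of 0.28. For PSS1-LMS against PSS1-WT, 0 of 38 were called, as were 0% of all genes; 6 had an unadjusted p under 0.05, and 33 were higher and 5 lower, with a median of 0.28. The medians of all measured genes were -0.06, -0.02 and 0.04. Of all 10871 genes, 746, 714 and 773 had an unadjusted p under 0.05 in the 3 comparisons.

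The members' shifts under PSS1 lay between -0.59 and 1.11, while their day 3 differences between RANKL and M-CSF reached -3.07. Cdc45 had the greatest of them, at 1.11 ± 0.27 (SE, adjusted p = 0.303) for PSS1-LMS against PSS1-WT. It measured 7.35, 5.95, 5.98 and 6.99 on day 3 and 6.15, 6.43, 5.66 and 6.87 on day 6, again ordered as M-CSF, then M-CSF+RANKL, then PSS1-WT, then PSS1-LMS, so that PSS1-LMS was above PSS1-WT on both days. On simulated data the test recovered 18% of 2-fold changes and 94% of 4-fold changes in that comparison. More genes passed in the simulated data than in the real data, which eases the adjustment, so these shares may be too high.

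**Figure D4:**
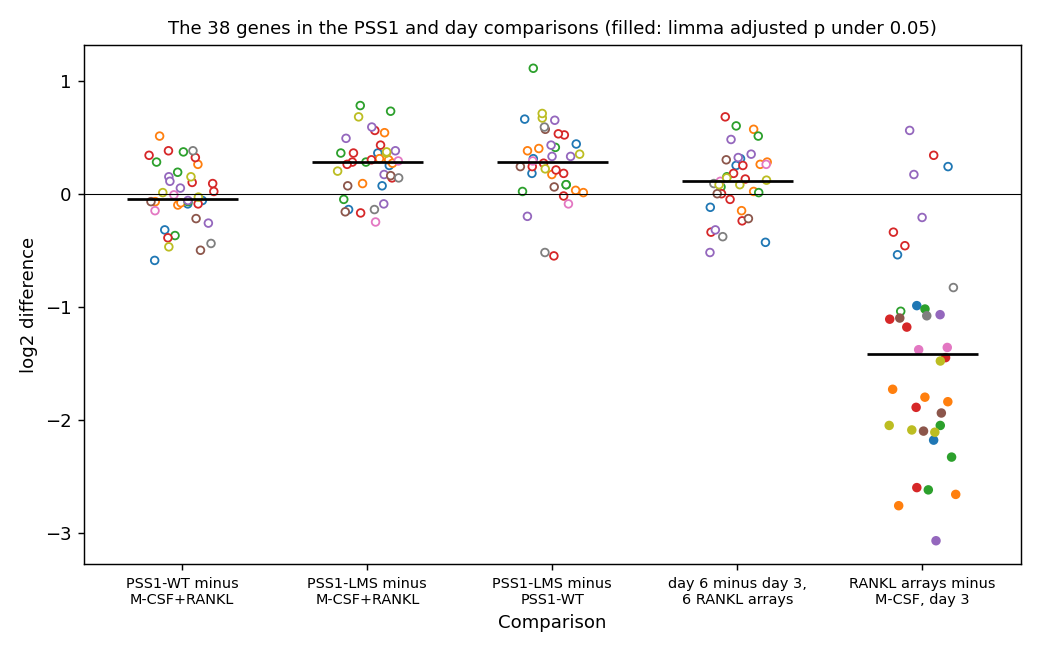
Log2 difference (y axis) of the 38 genes in the 3 PSS1 comparisons, in day 6 minus day 3 over the 6 arrays with RANKL, and in the RANKL arrays minus M-CSF on day 3; points are genes coloured by role as in the other plots, filled where limma's adjusted p was under 0.05, and bars are medians. No point is filled in the first 4 columns, and 28 of 38 are filled in the last, whose median is -1.41.

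The other genes of the pathway were read from lists by name. Their counts stand beside shares of all measured genes of 20.2% lower and 22.3% higher on day 3, 21.6% lower and 22% higher on day 6, and 8.49% positive and 11.3% negative in the interaction. Of 13 further licensing and firing genes, 6 were lower and 0 higher with RANKL on day 3, 0 lower and 2 higher on day 6, and 7 had a positive interaction. The 2 higher on day 6 are no more than the share of all genes. Gins4, the remaining GINS subunit, was lower on average at -1.32 ± 0.41 (SE, adjusted p = 0.0483), and its interaction of 0.88 (adjusted p = 0.234) missed the threshold. Orc2, another subunit of the origin recognition complex, measured 8.58 in M-CSF and 9.57, 9.21 and 8.75 with RANKL on day 3, and 6.93 and 9.26, 9.82 and 9.35 on day 6; its difference passed on day 6, at 2.55 (adjusted p = 4.45e-05), where M-CSF was within background and the fold was at least 5.09, and not on day 3, at 0.60 (adjusted p = 0.183). Of 22 further fork genes, 15 were lower and 1 higher on day 3, and 1 lower and 4 higher on day 6. Asf1b, a histone chaperone of dividing cells, was lower on both days, at -2.83 (adjusted p = 2.15e-06) and -1.84 (adjusted p = 8.25e-05). Averaged over days, Rfc1, the large clamp loader subunit, was lower at -1.21 (adjusted p = 0.0351) and Rnaseh2b, a subunit of ribonuclease H2, at -1.08 (adjusted p = 0.0499). Pole4, a small polymerase epsilon subunit, was higher on day 6 at 2.37 (adjusted p = 2.5e-05).

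Of 13 deoxynucleotide genes outside the member list, 1 was lower and 4 higher on day 3, 4 were lower and 4 higher on day 6, and 3 interactions were positive and 3 negative. Beside the shares of all genes just given, these are small counts with no common direction. The deoxycytidine kinase gene Dck measured 9.07 in M-CSF and 5.68, 5.50 and 5.63 with RANKL on day 3, and 8.15 and 5.57, 6.09 and 6.07 on day 6, and was lower on both days, at -3.46 (adjusted p = 7.56e-07) and -2.24 (adjusted p = 3.12e-05). The p53-inducible reductase subunit Rrm2b was higher on average at 1.09 (adjusted p = 0.0356). Dctd, deoxycytidylate deaminase, was higher on day 6 at 3.95 (adjusted p = 1.74e-07), where its M-CSF array was the only one within background. Of 15 genes of purine and pyrimidine synthesis, 3 were lower and 2 higher on day 3, and 2 lower and 8 higher on day 6. The day 3 counts were no more than the shares of all genes. On average Ctps2, which makes CTP, was lower at -2.32 (adjusted p = 0.00531) and Prps2, which makes the ribose phosphate donor, at -1.25 (adjusted p = 0.0141). Umps, the last enzyme of UMP synthesis, was higher at 1.63 (adjusted p = 0.0166), and the purine enzymes Adsl and Atic at 0.94 (adjusted p = 0.0482) and 1.54 (adjusted p = 0.0499).

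Regulators of S-phase entry were mostly lower on day 3. Of 13 E2F and pocket protein genes, 9 were lower and 0 higher on day 3, and 5 lower and 2 higher on day 6. E2f2, an activator of replication genes, measured 12.38 in M-CSF and 7.17, 7.47 and 7.88 with RANKL on day 3, and 9.34 and 7.29, 7.24 and 7.91 on day 6. Its difference was -4.87 (adjusted p = 1.78e-07) on day 3 and -1.86 (adjusted p = 0.000649) on day 6. Rb1, the pocket protein that restrains E2F, was lower on both days, at -2.78 (adjusted p = 9.54e-06) and -3.09 (adjusted p = 2.83e-06).

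Of 12 genes for cyclins, kinases and related factors of the G1 and S phases, 9 were lower and 0 higher on day 3, and 1 lower and 4 higher on day 6. Ccnd3, a D-type cyclin, was lower on both days, at -3.33 (adjusted p = 3.75e-07) and -3.15 (adjusted p = 4.57e-07). Ccna2, the S-phase cyclin, was lower on day 3 at -3.03 (adjusted p = 1.2e-05) and not past the threshold on day 6 at -0.74 (adjusted p = 0.104), and the same held for Fbxo5, an inhibitor of the anaphase-promoting complex, at -2.73 (adjusted p = 1.71e-05) and -0.63 (adjusted p = 0.14). Myc, a growth-promoting transcription factor, measured 14.61 in M-CSF and 14.84, 15.74 and 15.92 with RANKL on day 3, and 10.33 and 15.14, 15.02 and 15.87 on day 6, and was higher on day 6 at 5.01 (adjusted p = 6.12e-07). Of 5 genes for inhibitors of cyclin-dependent kinases, 3 were lower and 1 higher on each day. Cdkn1a was lower at -3.36 (adjusted p = 2.57e-05) on day 3 and -2.18 (adjusted p = 0.000841) on day 6, and on average Cdkn2c was lower at -2.26 (adjusted p = 0.00417) and Cdkn2d at -2.06 (adjusted p = 0.0358).

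Genes of mitosis act after replication. Of 20 listed, 19 were measured. All 19 were lower on day 3, and on day 6, 7 were lower and 1 higher. Nusap1, a spindle protein, was lower at -3.15 (adjusted p = 6.53e-06) on day 3 and -1.76 (adjusted p = 0.000791) on day 6, and Tpx2, which activates the Aurora A kinase, at -3.14 (adjusted p = 7.79e-05) on day 3, with -0.77 (adjusted p = 0.189) on day 6. From day 3 to day 6 in M-CSF the mitosis genes had a median change of -1.51, near that of -1.52 for the replication genes, and whether the lists differ was not tested.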

How the data were processed

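Signals came from the series' deposited table of log2 values for 28846 features on 8 Affymetrix arrays; the sources used here do not give the authors' summarization or normalization, and that the deposited values are log2 follows from their range of 1.25 to 19.93. Per the labels' protocols, 500 ng of total RNA went into biotinylated cDNA. Values were used as deposited. The number of arrays limits the precision. Clusters were named through the platform's annotation, with 1 cluster per gene (the highest mean). Genes whose highest value reached 4.86, the 50th percentile, were measured, and all 38 members on the table passed this filter; 10871 genes were tested.

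Tests used limma 3.58.1 in R 4.3.3 (lmFit, eBayes) with a threshold of 0.05 after Benjamini-Hochberg adjustment over all 10871 genes. The single-day RANKL differences and the interaction came from a fit of RANKL by day on 8 arrays, with 4 residual degrees of freedom. That fit pools the 3 RANKL cultures of a day, so PSS1 effects enter its error, and it assumes that the lone M-CSF array of a day varies like them. The averaged RANKL effect used culture and day as additive terms on 8 arrays (3 residual degrees of freedom), and the PSS1 and day effects used the same terms on the 6 arrays with RANKL (2). A fold is "at least" where the dimmer side was within background on all its arrays. Data were also simulated with 50 changed genes per size among 10871. Of 4-fold changes, 96% were recovered on day 3, 92% on day 6, 42% in the interaction and 100% in the averaged RANKL effect. At 2-fold the shares were 18%, 10%, 0% and 34%. Far fewer genes passed in the simulated data than in these comparisons, and the adjustment is stricter where fewer pass. The shares are therefore not the recovery to be had in the data.

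The members and lists were chosen with earlier results of these data known. All 8 values are given for the members of each role with the largest averaged RANKL difference (1 of 2, 2 of up to 5, 3 of more), for those against their role's direction, and for those past the threshold in the interaction or a PSS1 comparison. In each other list the 2 largest averaged differences are named, and all that passed where 5 or fewer did. Alternatives were the normalization, the filter, a background floor, the variance prior, the arrays fitted and leaving out each array. Gene symbols and promoter windows of GRCm38.p6 are from RefSeq.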

Additional observations from a re-analysis of the deposited data

Results flagged for a closer look

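For 25 of the 38 replication genes the difference between RANKL and M-CSF itself differed between day 3 and day 6, by the limma interaction. The log2 interaction of the licensing and helicase genes was 3.62 for Mcm10, 3.22 for Orc6, 3.05 for Mcm2, 3.00 for Mcm4, 2.83 for Mcm3, 2.71 for Mcm6, 2.58 for Mcm5, 2.51 for Cdc6, 2.20 for Gins1, 1.93 for Gins2 and 1.26 for Gins3. That of the genes for DNA synthesis was 2.93 for Prim1, 1.33 for Prim2, 2.17 for Pole, 1.85 for Pole2, 1.65 for Pcna, 2.06 for Rfc4, 1.61 for Rpa2, 1.87 for Rpa3, 1.66 for Fen1, 1.34 for Lig1 and 1.61 for Chaf1a. The nucleotide genes had interactions of 2.85 for Rrm2, 2.04 for Rrm1 and 1.65 for Tk1. Every one of these 25 rested on a single M-CSF array a day, and without either of those arrays the interaction could not be fitted.

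Of the named genes outside the member list, 11 had an interaction past the threshold. It was positive at 4.12 for Myc, 3.56 for Dctd, 3.01 for E2f2, 2.38 for Tpx2, 2.29 for Ccna2, 2.22 for Pole4, 2.11 for Fbxo5, 2.11 for Cdkn2d, 1.95 for Orc2 and 1.70 for Atic, and negative at -1.34 for Ctps2.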

How the results depend on the processing

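The day 3 count of lower members (28) lay between 20 and 29 over all settings tried and the interaction count (25) between 19 and 28. The averaged RANKL count of lower members (2) became 1 with no filter on low values, with the filter at the 75th percentile and with only the 4 arrays compared, and 0 with signals raised to the brightest background; leaving out each array gave 0 to 28 lower, 0 to 4 higher and a median of -1.43 to 0.23. With an M-CSF array left out, the averaged effect rests on the M-CSF array of the other day alone. The cause of the other changes was not tested. Raising signals to the brightest background also took the day 3 median to -0.97, the interaction median to 1.20 and the day 6 counts to 2 lower and 2 higher; by construction it removes differences among dim signals. The day effect fitted on all 8 arrays had a median of -0.31, since it then takes in M-CSF. Leaving out each array gave 0 to 1 member higher for PSS1-LMS against PSS1-WT. Of values of single called members under the alternatives, 14 of 384 on day 3, 10 of 111 on day 6, 31 of 318 in the interaction and 12 of 31 in the averaged effect kept their direction and lost the threshold, and 0 reversed. Centring arrays on their medians moved the median interaction of all genes from -0.03 to -0.15. Each group had 1 array, so there were no replicate numbers to block on. The additive fits held culture and day as terms, which pairs the days of a culture. The fit of RANKL by day did not pair the days of a culture. Dim members, Orc1 and Pola1 first, have no bounded fold.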
